A study of Mus musculus with 11 samples.

Results

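The genes of glycolysis and glycogen metabolism were followed through denervation in the tibialis anterior, a fast muscle of the mouse lower leg. The set holds 33 genes, chosen by function as the enzymes and regulators that store and release glycogen, break glucose down to pyruvate and lactate, or pass glycolytic electrons to mitochondria. They were chosen with earlier results of these data known, so their counts stand beside those of all genes as a description. Of the 33 genes, 29 had an Affymetrix probe set annotated to that gene alone, among 18193 genes with such a probe set. Each was represented by its probe set with the highest mean signal. All 29 passed the filter on low values, as did 12214 genes in all, and 28 of the 29 lay above the array median on all 11 arrays, the exception being Aldoc with 3 arrays. Gapdh was measured only by array control probe sets, and Gpi1, Pfkfb1 and Eno1 had no probe set of their own in the annotation and are not analysed here.

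The groups were 3 arrays of denervated mutant muscle, 3 of denervated control muscle, 2 of innervated mutant muscle and 3 of innervated control muscle. All mice carried runx1f/-, in which 1 copy of Runx1, a transcription factor gene, is floxed and the other is null, and the mutant mice carried MCK::cre in addition. Cre recombinase is expressed there from the promoter of muscle creatine kinase, a fibre gene, so other cells of the muscle are not targeted. Effects of Cre itself and of Runx1 targeting cannot be told apart. Denervation lasted 3 days by the sample titles, while a note on the treatment of denervated control 3 has 5 days. No age, sex or strain is given in the labels, which also do not say that the arrays of a group came from separate animals, so p-values measure the spread between these arrays, which may be technical.

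Muscle fibres break down glycogen through phosphorylase, which phosphorylase kinase switches on when calcium rises during contraction, and rebuild it through glycogen synthase and the branching enzyme. Glycolysis first spends ATP to turn hexose phosphates into triose phosphates (the upper arm) and then gains ATP while turning triose phosphates into pyruvate (the lower arm), and lactate dehydrogenase and the glycerol phosphate shuttle reoxidise the NADH that the lower arm makes. Fast fibres carry muscle isoforms of many of these enzymes, while other tissues, and muscle before it matures, use isoforms from other genes.

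Signals are in intensity units on a linear scale, and levels are compared between arrays for 1 probe set at a time, never between genes. The median signal of an array lay between 442.5 and 604.6. Runx1 had signals of 20403, 20449 and 23185 in denervated mutant muscle, against 288 and 395 in innervated mutant muscle. It had 23499, 25898 and 24353 in denervated control muscle, against 504.5, 519 and 179 in innervated control muscle, and where its probe set lies relative to the deleted part is not known here, so it does not check the genotype. All 12 markers of skeletal muscle fibres were above the range of the Trp negative control probe sets (13.8 to 440) in all 4 groups. Their summed signal was 1626418 to 2040465 in denervated mutant muscle and 1654667 to 2339060 in denervated control muscle, against 2655459 to 3095397 in innervated mutant muscle and 2576924 to 2891956 in innervated control muscle. The summed signal of 12 macrophage and leukocyte markers was 113532 to 121945 in denervated mutant and 87206 to 128286 in denervated control muscle, against 25280 to 25967 in innervated mutant and 30197 to 43080 in innervated control muscle. Of these 12 fibre markers 11 fell in mutant and 9 in control muscle, and of the macrophage markers 10 rose in mutant and 5 in control muscle, with 0 of 12 in the range of the negative controls in denervated muscle and 1 in innervated muscle. Between genotypes in denervated muscle 1 of the 12 fibre markers was called lower in mutant muscle, where this held for 1.12% of all genes. It was Myh2, with means of 10124 in denervated mutant and 68717 in denervated control muscle (log2 difference -2.78, limma adjusted p = 0.000262). Of 6 slow fibre markers 2 were also called lower there. The summed signal of 10 endothelial markers was 38546 to 42724 in denervated mutant and 37943 to 40571 in denervated control muscle, against 58432 to 64487 in innervated mutant and 62591 to 67264 in innervated control muscle, with 4 of the 10 lower in mutant and 7 in control muscle. The part of these shifts in the results below was not tested. In whole muscle, fewer fibres and less RNA per fibre cannot be told apart.

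After denervation most genes of the module were lower in both genotypes, on the scale of the deposited signals. In mutant muscle 19 of the 29 measured genes fell, 1 rose and 9 did not pass the test, where limma called 13.8% of all genes lower and 16.7% higher. In control muscle 20 fell, 1 rose and 8 did not pass, where 16.4% of all genes were called lower and 18.1% higher. The median log2 change of the 29 genes was -0.95 in mutant and -0.95 in control muscle, and that of all genes was -0.01 in each. The members are bright, with 20 of the 29 above the 95th percentile of mean signal over all probe sets and 13 above the 99th. The highest signal of an array was 171982 to 251872 on denervated and 252411 to 304181 on innervated arrays. All 12 fibre markers also had negative changes, with medians of -0.57 in mutant and -0.46 in control muscle. The part of brightness in these falls was not tested. Lower calls were shared by 18 genes, and Gbe1 was the gene that rose in both genotypes. Ugp2 and Hk2 passed in control muscle alone and Aldoa in mutant muscle alone, and the interaction was not past the threshold for any of them. Denervated and innervated arrays did not overlap for 21 of the 29 genes in mutant muscle, where this held for 60.7% of all genes, and for 22 in control muscle, where it held for 46.7%.

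**Figure D1:**
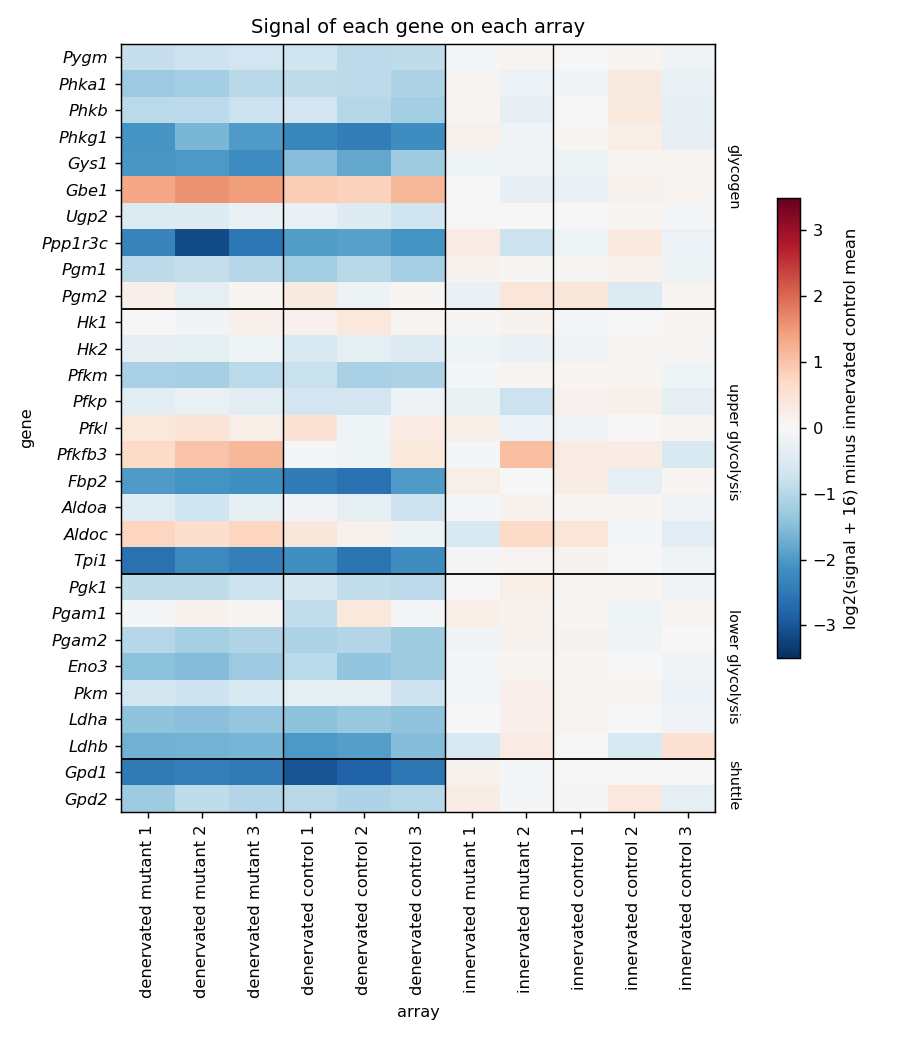
Each row is a gene and each column an array, grouped as denervated mutant, denervated control, innervated mutant and innervated control; colour is log2(signal + 16) minus the mean of the 3 innervated control arrays. Most rows are blue on all 6 denervated arrays, Gbe1 is red on all 6, and Pgm2, Hk1 and Pfkl stay near white; with arrays centred on the spike-in controls instead, Hk2, Pgk1, Pkm, Ugp2, Pgam1, Aldoa and Pfkp turn sign in control muscle, and Hk1, Hk2, Pgam1, Pgm2 and Ugp2 in mutant muscle.

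These counts are relative to the scaling of the arrays, which set the trimmed mean of every array equal. The mean log2 signal of the spike-in control probe sets was 13.38 to 13.74 on denervated mutant and 13.14 to 13.22 on denervated control arrays, against 14.03 to 14.04 on innervated mutant and 13.83 to 14.30 on innervated control arrays. Centred on these controls, the median change of all probe sets was 0.37 in mutant and 0.80 in control muscle, and the median of the 29 genes was -0.48 in mutant and -0.12 in control muscle. On that scale 12 of the 29 genes were called lower and 3 higher in mutant muscle, where 4.03% of all genes were called lower and 32.5% higher. In control muscle 8 were called lower and 6 higher, where 3.21% of all genes were called lower and 60% higher, and all of the lower calls were among those of the deposited scale. The 12 lower genes in mutant muscle were Gpd1, Gpd2, Tpi1, Fbp2, Ppp1r3c, Gys1, Phkg1, Phka1, Pfkm, Eno3, Ldha and Ldhb. The 8 lower genes in control muscle were Gpd1, Fbp2, Tpi1, Phkg1, Ppp1r3c, Ldhb, Gys1 and Ldha. The 3 higher genes in mutant muscle were Gbe1, Pfkl and Pfkfb3. The 6 higher genes in control muscle were Gbe1, Hk1, Pfkl, Pfkfb3, Pgm2 and Pgam1. Lower calls that ended in mutant muscle were 7, those of Pygm, Phkb, Pgm1, Aldoa, Pgk1, Pgam2 and Pkm. In control muscle 12 ended, those of Pygm, Phka1, Phkb, Ugp2, Pgm1, Hk2, Pfkm, Pgk1, Pgam2, Eno3, Pkm and Gpd2. The spike-in controls were the Bio and Cre control probe sets of the array, and the step at which they were added is not known here. Neither scale is therefore shown to follow RNA per muscle, and this was not tested.

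Among the 10 glycogen genes measured, 7 fell and 1 rose in mutant muscle, and 8 fell and 1 rose in control muscle, with a median log2 change of -0.89 in mutant and -0.96 in control muscle (4 lower and 1 higher in mutant, 3 lower and 2 higher in control on the spike-in scale). Phkg1, the catalytic subunit of muscle phosphorylase kinase, had the largest fitted fall of the kinase's subunits. Its signals were 10925, 14947 and 11405 in denervated mutant muscle, against 50853 and 42113 in innervated mutant muscle. In the control genotype they were 9408, 8493 and 10101 in denervated control muscle, against 46968, 53966 and 37192 in innervated control muscle. The arrays did not overlap in either genotype, and the log2 change was -1.91 ± 0.19 (SE, limma adjusted p = 1.08e-05) in mutant and -2.29 ± 0.17 (SE, limma adjusted p = 5.85e-07) in control muscle, a 3.76-fold and a 4.88-fold fall. The regulatory alpha subunit Phka1 fell by 2.13-fold in mutant and 1.95-fold in control muscle, and the beta subunit Phkb by 1.72-fold and 1.93-fold (limma adjusted p between 0.000355 and 0.0125 over both genes and genotypes). Pygm, the phosphorylase that this kinase activates, averaged 111267 ± 5067.5 in denervated mutant muscle and 188639.9 ± 12881 in innervated mutant muscle (SD, n = 3 and 2), and 103364 ± 8659 in denervated control muscle and 184716 ± 14167 in innervated control muscle (SD, n = 3 each). It fell by 1.69-fold in mutant (limma adjusted p = 0.000732) and 1.79-fold in control muscle (limma adjusted p = 0.000109). On the spike-in scale Pygm had log2 changes of -0.29 in mutant and -0.0067 in control muscle (limma adjusted p = 0.312 and 0.976). Phka1 kept its mutant call there, while its control call and both Phkb calls ended.

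Genes on the building side of glycogen did not move together. Gys1, the muscle glycogen synthase, had signals of 7427, 7632 and 6639.7 in denervated mutant muscle, against 27691 and 28534 in innervated mutant muscle. In control mice its signals were 10947, 8877 and 12918 in denervated control muscle, against 27222, 32081 and 32828 in innervated control muscle. Gys1 fell in both, with a log2 change of -1.96 ± 0.17 (SE, limma adjusted p = 3.13e-06) in mutant and -1.50 ± 0.15 (SE, limma adjusted p = 7.76e-06) in control muscle. Ppp1r3c, a subunit that brings protein phosphatase 1 to glycogen and so favours the active form of the synthase, had 27766, 15982.5 and 24027 in denervated mutant muscle, against 170514 and 83455 in innervated mutant muscle. In controls Ppp1r3c had 36405, 37551 and 32735 in denervated control muscle, against 125993, 178111 and 121976 in innervated control muscle. The innervated mutant pair of Ppp1r3c differed widely, yet all denervated arrays lay below all innervated ones. Its log2 change was -2.44 ± 0.29 (SE, limma adjusted p = 4.41e-05) in mutant and -1.98 ± 0.26 (SE, limma adjusted p = 7.15e-05) in control muscle.

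Gbe1, the branching enzyme that adds the side chains of glycogen, was the single gene of the 29 to rise on the deposited scale. With spike-in centring 3 genes were called higher in mutant and 6 in control muscle. Gbe1 was among them in both genotypes, with log2 changes of 2.10 and 1.77. Its signals were 32575, 37992 and 35195 in denervated mutant muscle, against 12557 and 10322 in innervated mutant muscle. In control muscle they were 22907, 22286 and 28247 in denervated control muscle, against 10872, 13893 and 13602.5 in innervated control muscle. All denervated arrays lay above all innervated arrays, and Gbe1 rose by 3.09-fold in mutant (log2 change 1.63 ± 0.16 SE, limma adjusted p = 1.40e-05) and 1.91-fold in control muscle (log2 change 0.94 ± 0.15 SE, limma adjusted p = 0.000353). Gbe1 has 1 probe set of its own on the array, so no other probe set repeats this rise.

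Pgm1, the phosphoglucomutase that joins glycogen breakdown to glycolysis, had signals of 47192, 50065 and 44859 in denervated mutant muscle, against 97095 and 91089 in innervated mutant muscle. The control arrays gave 38609, 45112 and 39946 in denervated control muscle, against 91476, 97788 and 78439 in innervated control muscle. Pgm1 fell in both, by 1.99-fold (limma adjusted p = 0.000160) in mutant and 2.16-fold (limma adjusted p = 1.82e-05) in control muscle. Pgm2, a phosphopentomutase of the same family, had 1219.5, 862.5 and 1119 in denervated mutant muscle, against 916 and 1437 in innervated mutant muscle. For control muscle the Pgm2 signals were 1349, 944.5 and 1094 in denervated control muscle, against 1415, 763 and 1139 in innervated control muscle. These groups overlapped, and the 95% interval of the log2 change of Pgm2 was -0.75 to 0.52 in mutant and -0.51 to 0.63 in control muscle. On the spike-in scale Pgm2 was called higher in control muscle (0.88, limma adjusted p = 0.0287). Ugp2, which makes the UDP-glucose that the synthase uses, had a log2 change of -0.41 ± 0.15 (SE, limma adjusted p = 0.0566) in mutant and -0.47 ± 0.13 (SE, limma adjusted p = 0.0166) in control muscle, and on the spike-in scale the change in control muscle had the other sign, 0.36, and was not past the threshold. Without denervated control 3, the array with the note of 5 days, Ugp2 had -0.35 in control muscle (limma adjusted p = 0.0724). The control call also ended with quantile normalization (-0.15, limma adjusted p = 0.352) and without the filter (limma adjusted p = 0.0708), and the mutant value of Ugp2 passed without denervated control 1 or 3 or innervated control 2 (limma adjusted p between 0.0382 and 0.0418).

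Of 10 upper-arm genes measured, 4 fell in each genotype, and the median log2 change was -0.05 in mutant and -0.41 in control muscle (3 lower and 2 higher in mutant, 2 lower and 3 higher in control on the spike-in scale). Tpi1, the triosephosphate isomerase that feeds both triose phosphates into the lower arm, had the largest fall of the arm in mutant muscle. Its signals were 34671, 44829 and 40091 in denervated mutant muscle, against 203908.5 and 224969 in innervated mutant muscle. Control arrays had 47949.8, 35727 and 45785 in denervated control muscle, against 228202, 212312 and 194486 in innervated control muscle. No array of one state came near the other, and Tpi1 fell by 5.40-fold in mutant (limma adjusted p = 3.48e-07) and 4.93-fold in control muscle (limma adjusted p = 1.38e-07). Fbp2, the muscle fructose bisphosphatase, which runs the phosphofructokinase step backwards, had 3252, 2962 and 2875.5 in denervated mutant muscle, against 14789.9 and 12730.1 in innervated mutant muscle. In control mice Fbp2 had 2352, 2067 and 3209 in denervated control muscle, against 15298, 10274 and 13294 in innervated control muscle. Fbp2 fell by 4.52-fold in mutant (limma adjusted p = 9.03e-06) and 5.09-fold in control muscle (limma adjusted p = 1.21e-06).

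Phosphofructokinase sets the pace of glycolysis and has 3 subunit genes. Pfkm, the muscle subunit, had signals of 100878, 99328 and 115622 in denervated mutant muscle, against 216412 and 239178 in innervated mutant muscle. Its control signals were 130005, 101738 and 104380 in denervated control muscle, against 231761, 238530.1 and 198538 in innervated control muscle. Pfkm fell by 2.17-fold in mutant (limma adjusted p = 0.000114) and 2.00-fold in control muscle (limma adjusted p = 8.49e-05). On the spike-in scale the control value of Pfkm was -0.17 and did not pass (limma adjusted p = 0.455). Pfkl, the liver subunit, had 3381, 3573 and 2999.6 in denervated mutant muscle, against 3015 and 2273 in innervated mutant muscle. In control mice Pfkl had 3681, 2359 and 3190.1 in denervated control muscle, against 2401, 2606 and 2803 in innervated control muscle. The Pfkl groups overlapped in both genotypes, with log2 changes of 0.34 ± 0.21 (SE, limma adjusted p = 0.249) in mutant and 0.22 ± 0.18 (SE, limma adjusted p = 0.414) in control muscle, and a second Pfkl probe set passed in mutant muscle with 0.58 (limma adjusted p = 0.0402). On the spike-in scale Pfkl was called higher in mutant (0.81, limma adjusted p = 0.0282) and control muscle (1.05, limma adjusted p = 0.00140). Pfkp, the platelet subunit, had 1058, 1138 and 1049.6 in denervated mutant muscle, against 1178 and 814 in innervated mutant muscle. Control arrays of Pfkp gave 858.5, 862 and 1190.4 in denervated control muscle, against 1536, 1554 and 1087 in innervated control muscle. Pfkp did not pass the test in mutant (log2 change 0.14 ± 0.25 SE, limma adjusted p = 0.710) or in control muscle (log2 change -0.51 ± 0.22 SE, limma adjusted p = 0.0996).

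Hexokinase traps glucose in the fibre as glucose 6-phosphate. Hk2, the insulin-responsive isoform of muscle, had signals of 69685.5, 66359 and 75944 in denervated mutant muscle, against 75636 and 70820.4 in innervated mutant muscle. Control signals of Hk2 were 58887, 66880.4 and 62041 in denervated control muscle, against 78102, 88163 and 87534 in innervated control muscle. In control muscle Hk2 fell, with a log2 change of -0.43 ± 0.11 (SE, limma adjusted p = 0.0107), which had the other sign on the spike-in scale (0.40, not past the threshold) and missed the threshold with quantile normalization (-0.26, limma adjusted p = 0.137) and median centring (-0.35, limma adjusted p = 0.0811). In mutant muscle the groups overlapped and the log2 change was -0.05 ± 0.13 (SE, limma adjusted p = 0.791). The interaction did not pass the threshold (0.38 ± 0.17 SE, limma adjusted p = 0.622), so the genotypes are not shown to differ. Hk1, the widely expressed isoform, averaged 2365 ± 213 in denervated mutant muscle and 2448.5 ± 113.5 in innervated mutant muscle (SD, n = 3 and 2), and 2666 ± 281 in denervated control muscle and 2307 ± 101 in innervated control muscle (SD, n = 3 each), and it did not pass the test in either genotype. On the spike-in scale Hk1 was called higher in control muscle (1.03, limma adjusted p = 0.000345).

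Aldolase splits the hexose bisphosphate. Aldoa, the muscle aldolase, had signals of 202805, 165208 and 214864 in denervated mutant muscle, against 258904 and 296476.5 in innervated mutant muscle. Its control arrays gave 251872, 214681 and 163850.2 in denervated control muscle, against 281732, 281279 and 248492 in innervated control muscle. Aldoa lay at the top of the range of the arrays, being the maximum of denervated control 1, and its probe set is of a type that can bind related transcripts. The log2 change was -0.52 ± 0.18 (SE, limma adjusted p = 0.0459) in mutant muscle and -0.38 ± 0.16 (SE, limma adjusted p = 0.0885) in control muscle. The call in mutant muscle ended without any 1 of 8 of the 11 arrays, and with the replicate numbers as a block, where the value was -0.47 (limma adjusted p = 0.101). It also ended with quantile normalization (-0.020), median centring (-0.21) and spike-in centring (-0.047), without the filter or the variance trend, and with the second probe set. In control muscle the value was 0.45 on the spike-in scale, not past the threshold, and it passed without denervated control 1 (-0.53, limma adjusted p = 0.0321). Aldoc, the brain aldolase, had 563, 502 and 567.5 in denervated mutant muscle, against 222 and 535 in innervated mutant muscle. In control mice Aldoc had 434, 369 and 291 in denervated control muscle, against 447.5, 316 and 250.5 in innervated control muscle, several of them within the range of the Trp negative controls. Aldoc did not pass the test in either genotype. Pfkfb3, which makes the activator fructose 2,6-bisphosphate, did not pass either, with log2 changes of 0.44 ± 0.32 (SE) in mutant and 0.06 ± 0.28 (SE) in control muscle. On the spike-in scale Pfkfb3 was called higher in mutant (0.91, limma adjusted p = 0.0344) and control muscle (0.89, limma adjusted p = 0.0116).

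In the lower arm 6 of 7 measured genes fell in each genotype, with a median log2 change of -1.09 in mutant and -1.13 in control muscle (3 lower and 0 higher in mutant, 2 lower and 1 higher in control on the spike-in scale). Pgk1, the first step of this arm to make ATP, fell by 1.94-fold in mutant and 1.73-fold in control muscle (limma adjusted p = 0.000233 and 0.000328), but in control muscle its change was 0.04 on the spike-in scale. Eno3, the muscle enolase, averaged 89948 ± 8123 in denervated mutant muscle and 237669 ± 14469.7 in innervated mutant muscle (SD, n = 3 and 2), and 104532 ± 16418 in denervated control muscle and 238240 ± 14913 in innervated control muscle (SD, n = 3 each). Eno3 fell by 2.65-fold in mutant (limma adjusted p = 1.82e-05) and 2.29-fold in control muscle (limma adjusted p = 1.88e-05). Pkm, pyruvate kinase, fell by 1.63-fold in mutant and 1.37-fold in control muscle (limma adjusted p = 0.00539 and 0.0291), and in control muscle its log2 change was 0.38 on the spike-in scale. Without denervated control 3 the control value of Pkm was -0.31 (limma adjusted p = 0.122), and it also missed the threshold without innervated control 1 or 2, as the mutant value did without innervated mutant 2 (-0.61, limma adjusted p = 0.0594) and with median centring (-0.39, limma adjusted p = 0.0568). With quantile normalization the control value of Pkm was -0.12 (limma adjusted p = 0.466), and its call also ended without the filter (limma adjusted p = 0.0992), without the variance trend (limma adjusted p = 0.0678) and in the control arrays alone (limma adjusted p = 0.0701). The brightest of the 3 control probe sets of Gapdh, taken into the fit as an added alternative, had a log2 change of -0.59 in mutant (limma adjusted p = 0.0188) and -0.50 in control muscle (limma adjusted p = 0.0206). After quantile normalization the Gapdh values were -0.05 and -0.10, and on the spike-in scale -0.11 and 0.33, none of them past the threshold. The control call of Gapdh also ended without denervated control 2 or 3 or innervated control 1 (limma adjusted p = 0.05005, 0.0881 and 0.0667). Its mutant call ended with median centring (-0.28, limma adjusted p = 0.172) and without denervated mutant 2 (-0.52, limma adjusted p = 0.0701). Without innervated mutant 2 the mutant value was -0.48.

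Lactate dehydrogenase turns pyruvate into lactate. Ldha, its muscle subunit, averaged 79646 ± 3101 in denervated mutant muscle and 224496 ± 17083 in innervated mutant muscle (SD, n = 3 and 2), and 80015 ± 2867 in denervated control muscle and 210742.5 ± 15421 in innervated control muscle (SD, n = 3 each). Ldha fell by 2.82-fold in mutant (limma adjusted p = 2.08e-06) and 2.63-fold in control muscle (limma adjusted p = 9.66e-07). Ldhb, the heart subunit, had signals of 5163, 5176 and 5286 in denervated mutant muscle, against 11372 and 20219 in innervated mutant muscle. Control arrays of Ldhb gave 4097, 4350.3 and 5757 in denervated control muscle, against 16219, 11423 and 24044 in innervated control muscle. The innervated Ldhb arrays spread widely but all lay above the denervated ones, and Ldhb fell by 2.91-fold in mutant (limma adjusted p = 0.00164) and 3.51-fold in control muscle (limma adjusted p = 0.000163).

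The glycerol phosphate shuttle carries electrons of glycolytic NADH to mitochondria. Gpd1, its cytosolic enzyme, had the largest fall of the 29 genes in both genotypes. Its signals were 6715, 7075 and 6714 in denervated mutant muscle, against 40438 and 35789 in innervated mutant muscle. In control mice they were 4553, 5241 and 6382 in denervated control muscle, against 36565, 37734 and 36861.5 in innervated control muscle. The 2 states were far apart on every array, and the log2 change was -2.47 ± 0.15 (SE, limma adjusted p = 2.08e-07) in mutant and -2.79 ± 0.14 (SE, limma adjusted p = 2.14e-08) in control muscle, a 5.56-fold and a 6.92-fold fall. A second Gpd1 probe set averaged 4515 in denervated and 27302 in innervated mutant muscle, and 3482 and 19809 in control muscle. Another, dimmer one fell less, averaging 801 and 1272 in mutant and 1284 and 1562 in control muscle. Gpd2, the mitochondrial enzyme of the shuttle, had 19688, 25266 and 22847 in denervated mutant muscle, against 56401 and 45401 in innervated mutant muscle. Control signals of Gpd2 were 23822, 21995 and 23292 in denervated control muscle, against 45402, 61041 and 37011 in innervated control muscle. Gpd2 fell by 2.25-fold in mutant (limma adjusted p = 0.000691) and 2.03-fold in control muscle (limma adjusted p = 0.000623), but its other 3 probe sets did not pass in either genotype, the brightest of them with log2 changes of -0.74 in mutant (limma adjusted p = 0.0842) and -0.48 in control muscle (limma adjusted p = 0.201).

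**Figure D2:**
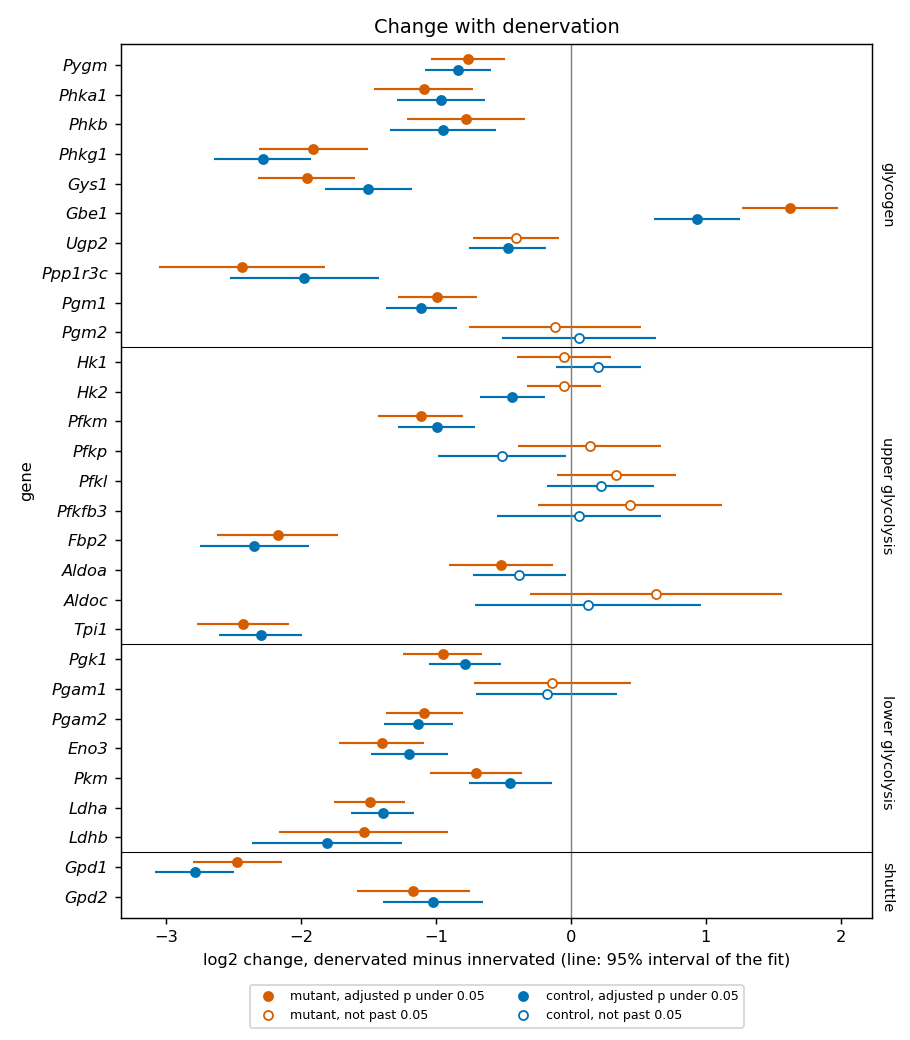
For each gene the points give the fitted log2 change, denervated minus innervated, in mutant (upper) and control muscle (lower), with its 95% interval; filled points passed an adjusted p of 0.05. Gpd1, Tpi1, Fbp2, Phkg1 and Ppp1r3c lie furthest to the left in control muscle, while in mutant muscle Gys1 lies further left than Phkg1. Gbe1 is the filled point to the right of 0 in each genotype. On the spike-in scale the mutant values of Hk1, Hk2, Pgam1, Pgm2 and Ugp2 and the control values of Hk2, Pgk1, Pkm, Ugp2, Pgam1, Aldoa and Pfkp turn sign.

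Genes with several probe sets had 31 further ones tested, and 28 of these had the same sign as the brightest in mutant and 28 in control muscle. The 3 with the opposite sign were not past the threshold in either genotype.

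Pairs of related genes were then compared within each array, where a scaling factor cancels. They are called isoform pairs here, although Pgm1 and Pgm2, and Gpd1 and Gpd2, are not isoforms of the same step. The measure was the change with denervation in the difference between the log2 signals of both genes, averaged over the genotypes, in an exact two-sided permutation test with 200 splits, for which the smallest p is 0.005. Of 10 listed pairs 8 could be tested, since Eno1 and Pfkfb1 had no values, and p was adjusted over these 8. The muscle isoform fell relative to the other in 4 such pairs. The difference changed by -0.95 for Pgam2 minus Pgam1, by -1.33 for Pfkm minus Pfkl, by -0.87 for Pfkm minus Pfkp and by -0.83 for Aldoa minus Aldoc, each with an exact permutation p of 0.005 and an adjusted p of 0.008. Aldoc's signals near the negative controls limit the last pair. Pgm1 minus Pgm2 changed by -1.02 (exact permutation p = 0.01, adjusted p = 0.0133) and Gpd1 minus Gpd2 by -1.54 (exact permutation p = 0.005, adjusted p = 0.008). By their brightest probe sets, the cytosolic enzyme of the shuttle thus fell more than the mitochondrial one. With control labels exchanged only between equally numbered arrays, an added alternative with 80 splits and a smallest p of 0.0125, these 6 pairs passed too (exact permutation, adjusted p = 0.02 for 5 pairs and 0.0333 for Pgm1 minus Pgm2).

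Both other pairs missed the threshold. The difference Hk2 minus Hk1 changed by -0.32 (exact permutation p = 0.055, adjusted p = 0.0629), with 0.00 in mutant and -0.64 in control muscle. Without innervated mutant 2 its change was -0.37 and passed (adjusted p = 0.0143). The difference Ldha minus Ldhb changed by 0.23 (exact permutation p = 0.295, adjusted p = 0.295), and after quantile normalization by 0.60, which passed (adjusted p = 0.024). For Pfkm minus Pfkp the change was -1.26 in mutant and -0.48 in control muscle, and a test between the genotypes was not run for the pairs.

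**Figure D3:**
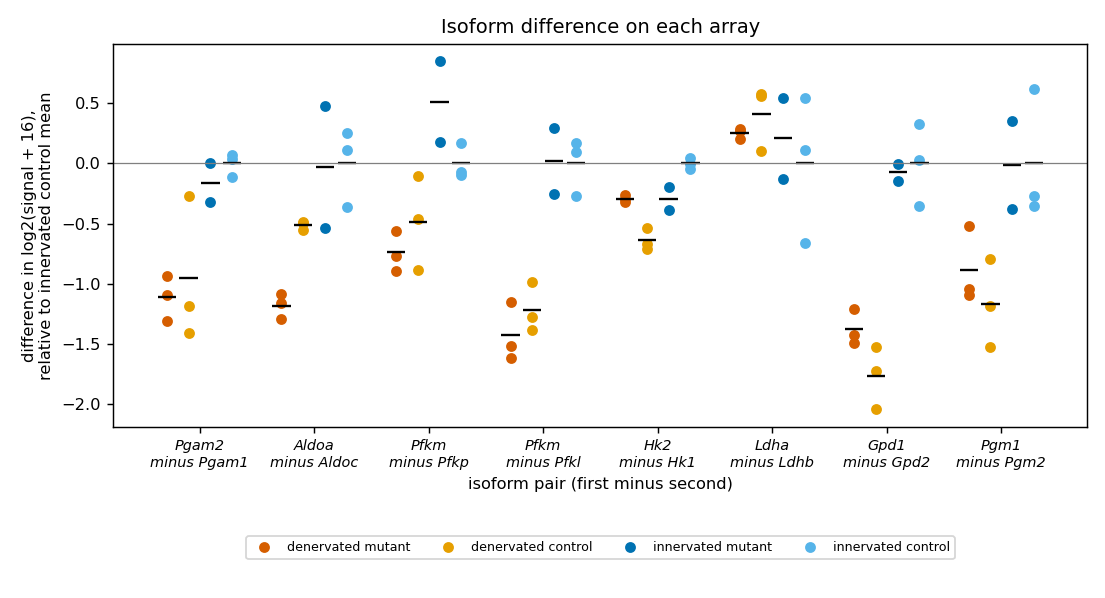
Each point is the difference in log2(signal + 16) between both genes of a pair on 1 array, relative to the mean of the innervated control arrays. Bars are group means, and groups run from denervated mutant to innervated control. Denervated points lie below innervated ones for Pfkm minus Pfkl and Gpd1 minus Gpd2, while for Ldha minus Ldhb the groups overlap.

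The phosphoglycerate mutases show the contrast between a muscle isoform and its widely expressed partner. Pgam2, the muscle mutase, had signals of 87922, 78530.4 and 85270.2 in denervated mutant muscle, against 165849.9 and 191847 in innervated mutant muscle. The control arrays of Pgam2 gave 81449, 86532 and 74631 in denervated control muscle, against 194049.6, 164172 and 174022 in innervated control muscle. Pgam2 fell by 2.13-fold in mutant (limma adjusted p = 5.84e-05) and 2.19-fold in control muscle (limma adjusted p = 1.21e-05). Pgam1, the mutase of brain and most other tissues, had 2932, 3391 and 3174 in denervated mutant muscle, against 3619 and 3342.5 in innervated mutant muscle. In control mice Pgam1 had 1701.5, 4005 and 2950.1 in denervated control muscle, against 3225, 2778 and 3273 in innervated control muscle. The Pgam1 groups overlapped in both genotypes, with denervated control 1 lowest of all arrays, and the log2 change had a 95% interval of -0.72 to 0.45 in mutant and -0.70 to 0.34 in control muscle. On the spike-in scale Pgam1 was called higher in control muscle (0.65, limma adjusted p = 0.0494).

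The 250 bases before the start of each of these mutase genes are shown because the 2 genes catalyse the same step and the difference between them changed with denervation. They are read from RefSeq on GRCm38.p6, the Pgam2 window on the minus strand at chr11:5803797-5804046 and the Pgam1 window on the plus strand at chr19:41911621-41911870, each written 5′ to 3′ on the gene's strand. Capitals mark E-boxes (CANNTG, the core bound by myogenic factors) and sites of the MEF2 motif, searched on both strands.
Pgam2: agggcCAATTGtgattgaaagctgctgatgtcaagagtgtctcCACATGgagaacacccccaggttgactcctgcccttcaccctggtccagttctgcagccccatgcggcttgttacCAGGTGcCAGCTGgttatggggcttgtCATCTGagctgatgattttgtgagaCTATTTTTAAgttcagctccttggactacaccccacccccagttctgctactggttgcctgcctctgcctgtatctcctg
Pgam1: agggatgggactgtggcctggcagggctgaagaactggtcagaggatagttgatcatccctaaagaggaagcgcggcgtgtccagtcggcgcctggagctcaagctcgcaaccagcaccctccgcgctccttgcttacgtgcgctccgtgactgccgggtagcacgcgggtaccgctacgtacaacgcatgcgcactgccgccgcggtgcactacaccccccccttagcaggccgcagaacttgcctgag
The Pgam2 window held 5 E-boxes and 1 MEF2 match, and the Pgam1 window held neither. Over the 32 genes of the module with a promoter in the table, 75.0% had an E-box, against 69.3% of 27018 genes, and 6.2% had a MEF2 match, against 3.4%. TGTGGT, the core bound by RUNX factors, was in a window of 9.4% of the 32 genes and 15.9% of all genes. The hypoxia response core ACGTG was in 46.9% of the 32 genes and 18.5% of all genes, and GCGTG in 56.2% against 30.9%, where ACGTG and GCGTG can overlap. A gene counted when any of its windows matched, and the 32 genes had 49 windows, against 32841 windows for all 27018 genes. By window, ACGTG was in 36.7% against 16.6% and GCGTG in 44.9% against 28.2%. E-boxes were in 71.4% of windows against 66.2%, MEF2 matches in 4.1% against 2.9% and TGTGGT in 6.1% against 14.0%. These are descriptions of letters in a window, not of binding.

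Genes around the module were read from lists of neighbouring pathways. Beside the counts of each list stand the shares over all genes. These were 13.8% lower and 16.7% higher in mutant, and 16.4% lower and 18.1% higher in control muscle. On the spike-in scale they were 4.03% lower and 32.5% higher in mutant, and 3.21% lower and 60% higher in control muscle. Of 10 genes of glucose entry and lactate export, 5 fell and 3 rose in mutant muscle, and 6 fell and 2 rose in control muscle (3 lower and 3 higher in mutant, 4 lower and 4 higher in control on the spike-in scale). Slc16a3, the lactate exporter of fast fibres, averaged 2418 ± 569 in denervated mutant muscle and 20423 ± 87.4 in innervated mutant muscle (SD, n = 3 and 2), and 1847 ± 657.5 in denervated control muscle and 18561.5 ± 1722 in innervated control muscle (SD, n = 3 each). It fell by 8.56-fold in mutant (limma adjusted p = 2.79e-06) and 10.4-fold in control muscle (limma adjusted p = 3.48e-07). Slc2a4, the insulin-regulated glucose transporter GLUT4, fell by 3.85-fold and 5.21-fold in mutant and control muscle, and Slc2a12, another glucose transporter, by 4.80-fold and 3.95-fold (limma adjusted p at most 6.11e-05 in all 4 tests).

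Genes that carry pyruvate and reducing power into mitochondria also fell. Of 11 genes of pyruvate entry, 8 fell and 0 rose in mutant muscle, and 9 fell and 1 rose in control muscle (2 lower and 0 higher in mutant, 3 lower and 2 higher in control on the spike-in scale). Dlat, a subunit of the pyruvate dehydrogenase complex, had log2 changes of -1.81 ± 0.15 (SE) in mutant and -1.82 ± 0.13 (SE) in control muscle. Pdp1, the phosphatase that activates the complex, had -2.16 ± 0.21 and -2.08 ± 0.18, and Pdk1, a kinase that inactivates it, -0.98 ± 0.17 and -1.40 ± 0.15, so this phosphatase and this kinase both fell (limma adjusted p at most 0.000808). On the spike-in scale the mutant call of Pdk1 ended (-0.51, limma adjusted p = 0.0747). Pdk3, another such kinase, was the gene of the list that rose in control muscle. Its means were 933 in denervated and 286 in innervated control muscle, the latter within the range of the Trp negative controls. Of 7 genes of the malate-aspartate shuttle 6 fell in each genotype (4 lower in each on the spike-in scale), and the fallen genes included Got1, Mdh1 and the carrier Slc25a12. Their log2 changes were -2.09, -1.55 and -1.34 in mutant and -1.92, -1.35 and -1.69 in control muscle (limma adjusted p at most 4.27e-05).

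The pentose phosphate pathway went the other way, with 4 of 7 genes higher and 0 lower in each genotype (5 higher in mutant and 6 in control on the spike-in scale, where 32.5% of all genes were called higher in mutant and 60% in control muscle). Pgd, its phosphogluconate dehydrogenase, averaged 27859 ± 3486 in denervated mutant muscle and 3845 ± 391 in innervated mutant muscle (SD, n = 3 and 2), and 23157 ± 2724 in denervated control muscle and 3891 ± 363 in innervated control muscle (SD, n = 3 each). Pgd rose by 7.20-fold in mutant (limma adjusted p = 1.06e-07) and 5.92-fold in control muscle (limma adjusted p = 6.49e-08). Taldo1, its transaldolase, rose by 2.45-fold and 1.54-fold, and H6pd, the hexose phosphate dehydrogenase of the endoplasmic reticulum, by 1.55-fold and 1.92-fold in mutant and control muscle. The call of H6pd in mutant muscle ended with the replicate block (0.60, limma adjusted p = 0.0528) and without any 1 of 4 mutant arrays (log2 changes of 0.53 to 0.72). The summed macrophage marker signals given above were also higher in denervated muscle.

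Other glycogen genes were mixed, with 3 of 16 higher and 3 lower in each genotype. These counts were close to the shares over all genes, 16.7% higher and 13.8% lower in mutant and 18.1% and 16.4% in control muscle. On the spike-in scale 4 were higher in mutant, 6 were higher in control and 0 were lower in either, where 32.5% and 60% of all genes were called higher. The 3 of these glycogen genes with the smallest p in control muscle all rose. Gaa, the lysosomal enzyme that degrades glycogen, had log2 changes of 1.29 ± 0.13 (SE) in mutant and 1.09 ± 0.12 (SE) in control muscle, and Stbd1, which tethers glycogen to membranes, 1.79 ± 0.18 and 1.42 ± 0.16. Phka2, the liver alpha subunit of phosphorylase kinase, rose by 3.66-fold in mutant and 2.11-fold in control muscle, while the muscle alpha subunit Phka1 fell. Among 17 other isoforms of glycolysis and gluconeogenesis, 3 fell and 1 rose in mutant muscle, and 5 fell and 3 rose in control muscle (2 lower and 5 higher in mutant, 2 lower and 8 higher in control on the spike-in scale). Bpgm, which makes 2,3-bisphosphoglycerate, fell by 3.57-fold and 3.86-fold in mutant and control muscle, Tigar, a fructose 2,6-bisphosphatase, by 2.69-fold and 3.20-fold, and Pgm2l1, a glucose 1,6-bisphosphate synthase, by 1.78-fold and 2.15-fold.

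Of the 7 subunit genes of AMP-activated kinase, which senses low energy, 3 fell and 1 rose in mutant muscle, and 3 fell in control muscle (1 lower and 1 higher in mutant, 1 lower and 3 higher in control on the spike-in scale). In mutant muscle 2 were lower and 0 higher with the replicate block or without the variance trend, and 1 lower and 1 higher with median centring. The gene that rose in mutant muscle was Prkag2, a gamma subunit named after its values were seen, with 0.65 ± 0.22 (SE, limma adjusted p = 0.0405). This call ended with the replicate block (0.66, limma adjusted p = 0.0681), without the filter or the variance trend, and without any 1 of 6 arrays (0.41 to 0.71), and in control muscle Prkag2 had -0.31, which did not pass, and 0.52 on the spike-in scale, which did. Prkaa2, the catalytic subunit that dominates in muscle, had a log2 change of -1.04 ± 0.16 (SE, limma adjusted p = 0.000359) in mutant and -1.42 ± 0.14 (SE, limma adjusted p = 7.95e-06) in control muscle. Prkag3, the gamma subunit of fast muscle, had -0.76 ± 0.16 and -0.59 ± 0.15 and passed in both, but on the spike-in scale its control value was 0.24 and did not pass, and its mutant call ended with median centring (-0.45, limma adjusted p = 0.0921). Prkab2, a beta subunit, had -0.36 ± 0.16 (SE, limma adjusted p = 0.105) in mutant and -0.54 ± 0.14 (SE, limma adjusted p = 0.00995) in control muscle, and the control value was 0.29 on the spike-in scale.

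**Figure D4:**
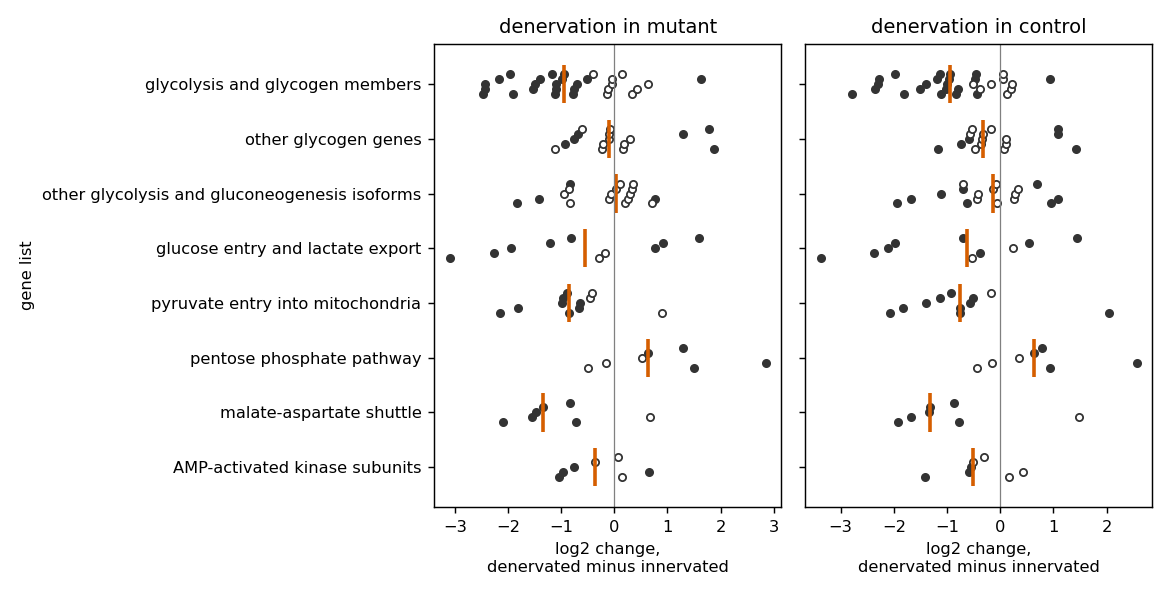
Each point is a gene, placed by its log2 change with denervation in mutant (left) and control muscle (right), in the glycolysis and glycogen genes and 7 lists of neighbouring pathways; filled points passed an adjusted p of 0.05 and bars mark the list medians. The malate-aspartate list has 6 of 7 filled points left of 0 and the pentose phosphate list 4 of 7 filled points right of 0 in each panel; on the spike-in scale 4 malate-aspartate genes are called lower in each genotype, and 5 pentose phosphate genes are called higher in mutant and 6 in control muscle.

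The effect of adding MCK::cre to runx1f/- was addressed by comparing mutant with control muscle in each state. In denervated muscle 0 of the 29 genes passed the limma test, where 2.16% of all genes were called, and the median log2 difference was 0.07. At an unadjusted p under 0.05 there were 6 of the 29, where this held for 12.5% of all genes, and limma without the variance trend also called 0. Arrays of both genotypes did not overlap for 7 of the 29 genes, 5 higher and 2 lower in mutant muscle, where this held for 23.1% of all genes. On the spike-in scale 1 of the 29 lay apart on the higher side and 15 on the lower side in mutant muscle, where 40.5% of all genes lay apart on the lower side. The 3 genes with the smallest p were Gys1, Gbe1 and Pfkfb3.

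Gys1 had a log2 difference of -0.58 ± 0.15 (SE, limma adjusted p = 0.0797), with every denervated mutant array (6639.7 to 7632) below every denervated control array (8877 to 12918). Without denervated control 2 the Gys1 difference was -0.72 and passed (limma adjusted p = 0.0437). On the spike-in scale, where the median of all probe sets was -0.38, Gys1 (-0.96) and Ppp1r3c (-1.07) were both called lower in denervated mutant muscle, 2 of the 29 genes, where 5.53% of all genes were called lower. Gbe1 differed by 0.53 ± 0.15 (SE, limma adjusted p = 0.109), with 32575 to 37992 in denervated mutant muscle and 22286 to 28247 in denervated control muscle. On the deposited scale the denervated arrays of the 2 genotypes thus lay apart for the synthase and branching enzyme genes, in opposite directions. Neither had an adjusted p past the threshold, and arrays lay apart for 7 of the 29 genes and 23.1% of all genes. On the spike-in scale the Gbe1 arrays of the 2 genotypes overlapped. Pfkfb3 had 10383, 13109 and 14616 in denervated mutant muscle, against 6385, 5816 and 8402 in denervated control muscle, a log2 difference of 0.89 ± 0.28 (SE, limma adjusted p = 0.185). In innervated muscle it had 6371 and 13548 in innervated mutant muscle, against 7998, 7725 and 4466 in innervated control muscle, where 1 mutant array was as high as the denervated mutant ones. In neighbouring lists, single genes passed in denervated muscle, and they are named here after their values were seen. Phka2 was higher in mutant muscle by 0.84 ± 0.15 (SE, limma adjusted p = 0.0122), Taldo1 by 0.67 ± 0.15 (limma adjusted p = 0.0430) and Prkag2 by 1.15 ± 0.19 (limma adjusted p = 0.00757) on the log2 scale. Pgm5, a relative of phosphoglucomutase without known enzyme activity, was lower by a log2 difference of -1.04 ± 0.22 (limma adjusted p = 0.0253). The calls of Phka2 and Taldo1 ended on the spike-in scale (0.46, limma adjusted p = 0.160, and 0.29, limma adjusted p = 0.351). The call of Phka2 also ended without any 1 of 3 arrays, that of Taldo1 without any 1 of 7 and that of Pgm5 without any 1 of 5, while Prkag2 passed in every alternative run (largest limma adjusted p = 0.0481).

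In innervated muscle 0 of the 29 genes passed in limma with or without the variance trend, where 0% of all genes were called, and 0 of the 29 had an unadjusted p under 0.05. The median log2 difference was 0.03. The smallest p values belonged to Pfkp (-0.48 ± 0.25 SE, limma adjusted p = 0.998), Hk2 (-0.21 ± 0.13 SE, limma adjusted p = 0.998) and Pfkfb3 (0.51 ± 0.32 SE, limma adjusted p = 0.998). The 95% intervals of the 29 differences lay between -1.01 and 1.19.

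**Figure D5:**
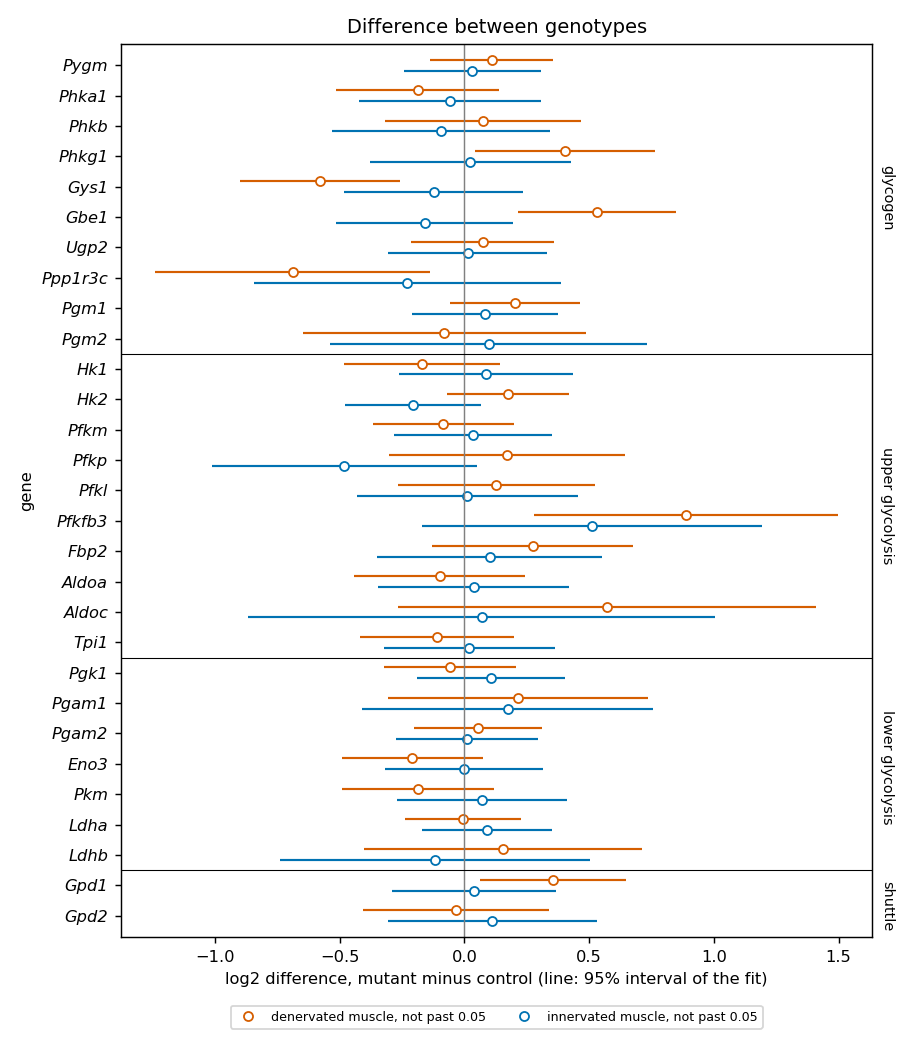
For each gene the points give the fitted log2 difference, mutant minus control, in denervated (upper) and innervated muscle (lower), with its 95% interval. All points are open, since 0 of 29 genes passed an adjusted p of 0.05 in either state; Gys1 and Ppp1r3c lie furthest left and Pfkfb3 furthest right in denervated muscle.

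The interaction asks whether denervation changed a gene differently in mutant muscle. It was past the limma threshold for 0 of the 29 genes, where 0.262% of all genes were called, with 2 of the 29 at an unadjusted p under 0.05 against 8.17% of all genes, and without the variance trend 0 passed. The median was 0.04. Gbe1 had the smallest p, with an interaction of 0.69 ± 0.22 (SE, limma adjusted p = 0.360), the change in mutant muscle being the larger, then Hk2 (0.38 ± 0.17 SE, limma adjusted p = 0.622) and Gys1 (-0.46 ± 0.22 SE, limma adjusted p = 0.688). The 95% interval of the Gbe1 interaction was 0.21 to 1.17.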

How the data were processed

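The deposited table gave linear intensity for 45101 probe sets on 11 arrays, and its values show that the authors had scaled each array to a 2% trimmed mean of 2500. The program behind these values is not named in the labels. Groups were taken from the sample titles. Signals were used as log2(signal + 16). The 64 control probe sets were left out, and 26170 probe sets were kept that exceeded the median of the same array on 2 or more arrays. Limma 3.58.1 in R 4.3.3 (eBayes with trend) was fitted with a mean per group, with p adjusted over all kept probe sets by Benjamini and Hochberg's method and a threshold of 0.05. A gene was represented by its brightest probe set among those with 1 gene symbol in the platform annotation (34958, against 932 with several and 9211 not listed). The fit was tested on simulated data. The errors of log2 changes are standard errors of the fit, those of signals standard deviations between arrays, and precision is limited by the few arrays in each group.

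The members and lists were chosen with earlier results of these data known. Values in every array are given for both genes of each isoform pair past the threshold, the 6 largest falls and all rises with denervation in control muscle, and, where no member passed between genotypes or in the interaction, the 3 with the smallest p there; of each neighbouring list up to 3 genes with the smallest p in control muscle are named. Across probe sets, residuals about the group means had r = 0.114, 0.217 and 0.303 for equally numbered denervated and innervated control arrays. Between the other groups r was -0.183 to 0.096. Values for unequally numbered arrays are not given here, so these r values do not show whether the numbers pair samples. The main fit took no account of the numbers, and the replicate block was applied to all groups. Alternatives covered the pseudocount, scaling, filter, variance trend, probe set, replicate block and leaving out each array, while the fit with the Gapdh control probe sets and the isoform test with control labels exchanged within replicate numbers were added after seeing the data. The labels hold no scan date or batch.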

Additional observations from a re-analysis of the deposited data

How the results depend on the processing

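Pseudocounts of 1 and 64, a filter on all 11 arrays or none, and a fit without the variance trend gave 18 to 20 lower genes in each genotype. With the replicate block the counts were 1 higher and 18 lower in mutant and 1 higher and 20 lower in control muscle, and it ended the mutant calls of Aldoa, H6pd, Prkag2 and, in the added fit, Gapdh, and no other call of a named gene. The median of the 29 genes after denervation was -0.71 in mutant and -0.58 in control muscle with quantile normalization, -0.64 in mutant muscle with median centring, and -0.48 and -0.12 with spike-in centring, where 12 genes were lower and 3 higher in mutant and 8 lower and 6 higher in control muscle. With each gene's second probe set, which 16 genes had, 9 were lower in mutant, and 10 lower and 0 higher in control muscle. Leaving out each array gave medians of -1.07 to -0.79 in control muscle. Between genotypes in denervated muscle the median was 0.17 with median centring, -0.31 with spike-in centring and -0.0482 with the second probe set, and genes called lower were 2 with spike-in centring (Gys1 and Ppp1r3c) and 0 to 1 over the arrays left out (Gys1 without denervated control 2). In innervated muscle the median was -0.10 with median centring, and for the interaction 0.27 with median centring, -0.31 with spike-in centring and -0.0891 with the second probe set. In control muscle spike-in centring turned the sign of Hk2 (0.40), Pgam1 (0.65), Pgk1 (0.0439), Pkm (0.38), Ugp2 (0.36), Prkab2 (0.29), Prkag3 (0.24) and Prkag2 (0.52), and of Aldoa (0.45) and Pfkp (0.31), which passed on neither scale; the cause was not tested. Median centring ended the mutant calls of Phkb (-0.47), Pkm (-0.39), Prkag3 (-0.45), Pgm2l1 (-0.53) and Aldoa (-0.21), the control calls of Hk2 (-0.35) and Prkab2 (-0.46), and between genotypes those of Taldo1 (0.78) and Pgm5 (-0.94). Those of Taldo1 and Pgm5 also ended without the variance trend. Without innervated control 3 Pfkp passed in control muscle (-0.68). For pairs, Hk2 minus Hk1 was 0.00 in mutant and -0.64 in control muscle alone, and -0.37 to -0.27 over the arrays left out. Pfkm minus Pfkp was -1.26 in mutant and -0.48 in control muscle alone, and Ldha minus Ldhb 0.60 with quantile normalization. Leaving out innervated mutant 1 ended the mutant calls of Phkb (-0.58) and Pgm2l1 (-0.60), and leaving out innervated mutant 2 that of Prkag3 (-0.67).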
